A study of Mus musculus with 96 samples.

Results

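BAM15 is a mitochondrial uncoupler, a small molecule that carries protons across the inner membrane so that respiration runs without making ATP. The 3 myotube samples treated with BAM15 alone (Tubes_BAM15_None) were compared with the 3 myotube samples given the solvent DMSO (Tubes_DMSO_None), 6 of the 96 samples of the series, picked by these sample names and by no measured value. All 6 came from untransduced C2C12 cells, a mouse myoblast line that fuses into myotubes when serum is withdrawn, kept for 4 days in medium low in dialyzed horse serum, with glucose and glutamine and with neither pyruvate nor uridine. The treatment lasted 10 hr, and the study's methods give 0.5 µM for BAM15. The samples set beside them were the same myotubes given piericidin (0.5 µM, a complex I inhibitor), antimycin (0.5 µM, a complex III inhibitor), oligomycin (1 µM, an ATP synthase inhibitor), oligomycin together with BAM15, or DMSO in 5% oxygen (Hypoxia_DMSO in the labels, after pre-conditioning at that oxygen level), with 3 samples each. Nothing in the labels says that replicates were separate cultures beyond their numbers, so the p-values measure the spread between these samples. The libraries were polyA RNA-seq by Smart-seq2, which does not keep the strand, so reads of a gene and of an overlapping antisense transcript cannot be told apart.

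The inner membrane stores energy as a proton gradient. The respiratory chain builds it, ATP synthase spends it, and an uncoupler lets it leak while oxygen use goes on. The integrated stress response (ISR) starts with phosphorylation of eIF2 alpha, runs through the transcription factor ATF4, and raises stress regulators and amino acid genes. The hypoxia-inducible factors (HIF) are degraded when oxygen is plentiful, through hydroxylation by EGLN enzymes, and when stable they raise glycolytic, angiogenic and mitophagy genes.

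The 6 libraries held 9810751 to 12204367 estimated counts. The cells expressed their defining genes. The 9 myotube markers, among them the embryonic myosin Myh3 and the skeletal actin Acta1, summed to 14997 to 16204 CPM (counts scaled to a common library size) with DMSO and 17274 to 18191 CPM with BAM15, against 18.2 to 23.3 CPM in luciferase-expressing myoblasts. Of the 9, Myh3, Myh8, Acta1 and Ckm lay higher with BAM15 without overlap, Mylpf and Myog lower, and the others overlapped. Mylpf was at 3021 to 3222 CPM with DMSO and 2713 to 2793 CPM with BAM15. Myog was at 717 to 772 and 673 to 705 CPM. The 8 markers of proliferating or unfused cells summed to 164 to 197 CPM with DMSO and 147 to 169.5 CPM with BAM15. The 3 fibroblast genes summed to 481 to 559.9 and 573 to 605 CPM. Of the 3 adipocyte markers, Adipoq and Fabp4 were at or near 0 and Pparg was at 1.47 to 2.73 CPM in the 6 libraries, and the 4 transgene sequences were at 0 in all 6 libraries. What part other cells had in the results was not tested.

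The position of a sample moved with the treatment. The labels carry a well code for each sample, read here as the wells of a 96-well plate. The BAM15 samples lay 0 or 1 row from the nearer outer row and the DMSO samples 2 or 3 rows from it, so the groups did not overlap in position and no value within 1 position could be had. In the 21 other myotube samples, which include 3 with oligomycin and piericidin (Tubes_Oligo_Pier_None) and 3 with oligomycin in 5% oxygen (Tubes_Hyp_Oligo_None), the level of 539 of the 12491 genes tested followed that distance, 513 of them rising inward. Rnf187, a ubiquitin ligase gene, had a median of 25.6 CPM in the 5 of these samples that lay in an outer row and of 242 CPM in the 4 that lay 3 rows in. A fit with the distance as a covariate, called the position fit, was therefore added after the data were seen. List counts against DMSO are given from it as well, while list counts and gene values in the other comparisons are from the fit without position unless stated.

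**Figure D1:**
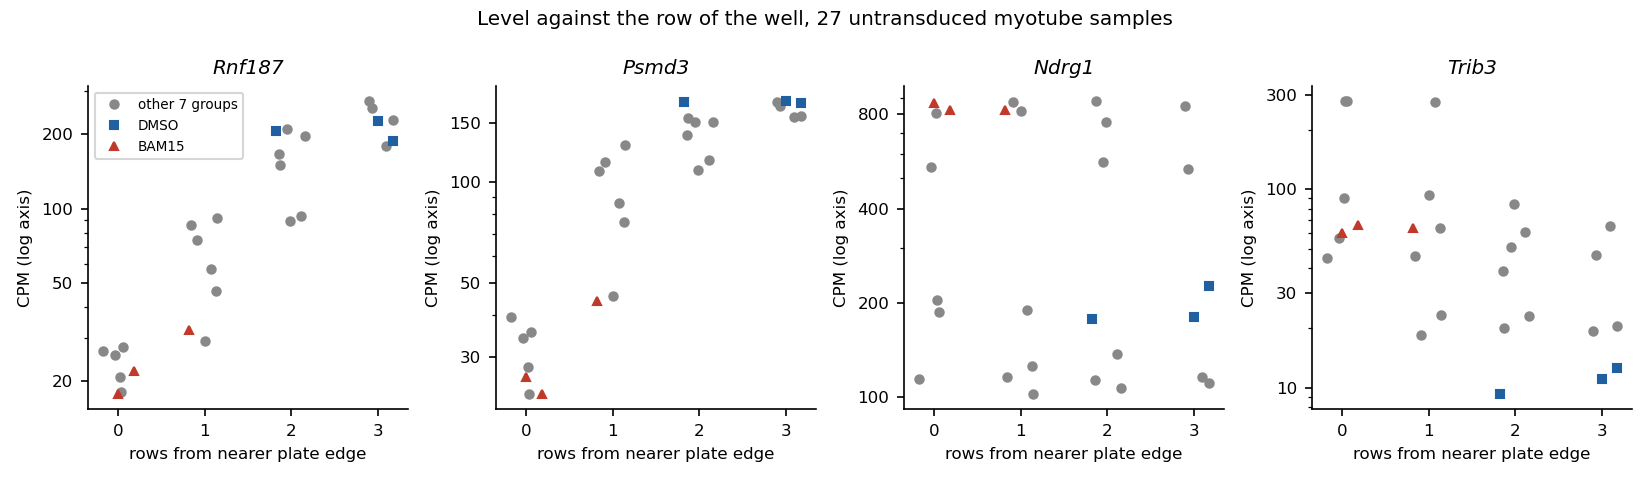
CPM of 4 genes (log axes) against the number of rows between a sample's well and the nearer plate edge, in the 27 untransduced myotube samples; triangles are BAM15, squares DMSO and circles the other treatments. Rnf187 and Psmd3 climb with distance, while the Ndrg1 levels of the treatments other than BAM15 alone and DMSO run from 102 to 885 CPM without such an order.

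Against DMSO, 3177 of 12491 genes differed with BAM15 (25.4%), with 1648 higher (13.2%) and 1529 lower (12.2%), by edgeR's quasi-likelihood test at an adjusted p of 0.05. Changes of at least 2-fold were found for 239 higher and 263 lower genes. The position fit called 1835 genes (14.7%), 1019 higher (8.16%) and 816 lower (6.53%), and kept the call and direction of 1700 of the 3177. Position moved with the falls more often than with the rises. Of the 263 genes at least 2-fold lower, 179 followed position in the other samples and 197 lost their call in the position fit, while of the 239 genes at least 2-fold higher 3 followed position and 67 lost their call. A further fit left out both BAM15 samples from an outer row. In it 1 sample stood for BAM15, so a lost call can come from fewer samples, and list counts from it are not given. Of the genes named here that kept a call in the position fit, Asns, Ckmt2, Csf1, Egr3, Fgf21, Hspd1, Ndufs8, Nolc1, Polr1a, Psmd3 and Timm29 were not called in it.

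The genes with the largest rises included HIF and ISR genes. By the rule for naming, the 12 were Ppp1r3b, Car12, Ero1l, Trib3, Adm, Cdsn, Vldlr, Eno2, Ak4, Atf3, Ndrg1 and Mgarp, with log2 fold changes of 2.09 to 2.78, of which Adm and Ndrg1 are on the list of 15 HIF targets used here and Trib3, Vldlr and Atf3 on the ISR list. All 12 kept their call in the position fit. Ppp1r3b, which targets a phosphatase to glycogen, was at 1.95, 0.997 and 2.08 CPM with DMSO and at 9.89, 11.7 and 12.9 CPM with BAM15. The groups lay well apart, although at a low level (log2 fold change 2.78 ± 0.40 SE, adjusted p = 1.12e-05 by edgeR). Car12, a carbonic anhydrase at the cell surface, went from 3.62 to 7.08 CPM up to 30.5 to 33.3 CPM. Ero1l, which oxidises protein thiols in the endoplasmic reticulum, was at 37.4, 43.8 and 53 CPM with DMSO and at 276, 232 and 272 CPM with BAM15 (log2 fold change 2.54 ± 0.10 SE, adjusted p = 4.56e-15). Eno2, a glycolytic enolase, went from 24.1 to 31.3 CPM up to 120.2 to 134 CPM, and Ak4, a mitochondrial adenylate kinase, from 8.52 to 14.8 up to 48.1 to 56.3 CPM. The same separation was seen for Cdsn, an adhesion protein of skin, at 2.05 to 3.44 and 12.5 to 16.4 CPM, and for Mgarp, a mitochondrial protein, at 4.35 to 6.14 and 16.4 to 25.8 CPM.

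The largest falls were mostly of genes that followed plate position. The 12 named by the same rule were Dapk3, Rnf187, Dnaaf5, Tysnd1, Igfbp3, Psmd3, Rps2, Timm29, Ank, E2f2, Sh2b3 and Ccdc102a, at log2 fold changes of -3.15 to -2.18, and 11 of them followed position in the other samples. E2f2, Psmd3 and Timm29 kept a call in the position fit. With the distance as 4 levels E2f2, Psmd3, Rnf187, Tysnd1 and Sh2b3 did, and with a covariate that marks only the outer plate row all but Dnaaf5 and Rps2 of the 12 did, at smaller changes for the genes other than E2f2. Psmd3, a lid subunit of the proteasome, was at 173, 175 and 172 CPM with DMSO and at 44.1, 26.1 and 23.2 CPM with BAM15, and its log2 fold change of -2.48 became -1.07 (adjusted p = 0.0398) with position in the fit and was not called without both outer-row BAM15 samples (-1.99, adjusted p = 0.138). Dapk3, a death-associated kinase, went from 15 to 15.5 CPM down to 0.740 to 3.60 CPM, a log2 fold change of -3.15 that became -1.24 (adjusted p = 0.285). Rps2 was counted at 0.401 to 8.97 CPM, far below the other ribosomal protein genes, and has near-identical copies, so its value is uncertain. E2f2, an activator of S phase genes, stood apart from this set. It was at 93.7, 86.7 and 78.0 CPM with DMSO and at 17.7, 18.9 and 17.2 CPM with BAM15 (log2 fold change -2.26 ± 0.0949 SE, adjusted p = 7.21e-15), and the position fit gave -2.28 (adjusted p = 3.77e-13).

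**Figure D2:**
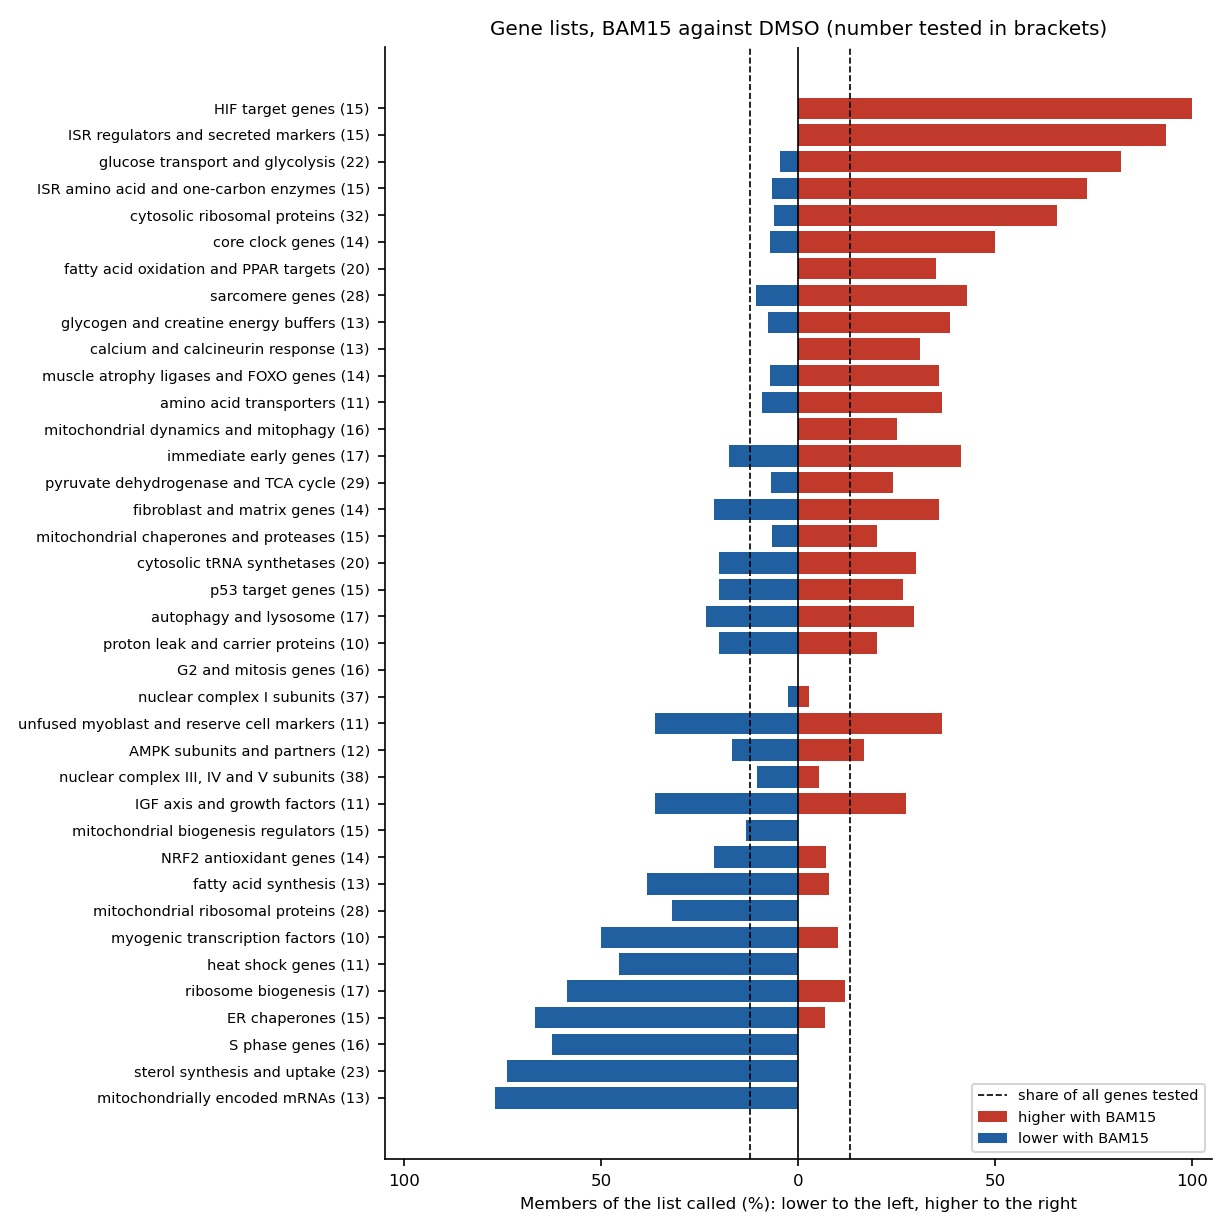
Share of the tested members of each gene list (bars, in %) called higher (right) or lower (left) with BAM15 against DMSO, for lists with at least 10 members tested; dashed lines mark the shares over all genes tested, 13.2% higher and 12.2% lower. HIF targets, ISR regulators, glycolysis and ISR enzymes lie at the top, and mitochondrially encoded mRNAs, sterol genes and S phase genes at the bottom.

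The HIF targets rose as a whole list. All 15 of 15 were called higher, in the position fit also, beside 13.2% and 8.16% of all genes. Their median log2 fold change was 1.57, beside 0.02 over all genes tested. Promoter stretches are shown for members that hold the core letters of the hypoxia response element, the kind of sequence through which HIF acts. They were picked by these letters alone. The letters ACGTG or, on the other strand, CACGT are in capitals, and all stretches end before the RefSeq start (GRCm38.p6), given 5′ to 3′ on the gene's strand. The letters CACGTG, which hold both, are also the E-box bound by MYC and clock factors.
Bnip3 (chr7:138909574-138909649, minus strand): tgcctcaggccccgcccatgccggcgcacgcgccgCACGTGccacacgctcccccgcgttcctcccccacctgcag
Car9 (chr4:43506973-43507025, plus strand): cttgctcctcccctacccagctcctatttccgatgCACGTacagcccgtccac
Slc2a1 (chr4:119108674-119108744, plus strand): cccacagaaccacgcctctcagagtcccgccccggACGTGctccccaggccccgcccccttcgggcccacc
Egln1 (chr8:124949283-124949357, minus strand): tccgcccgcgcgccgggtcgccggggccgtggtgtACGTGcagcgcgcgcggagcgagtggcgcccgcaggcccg
Pgk1 (chrX:106186915-106187008, plus strand): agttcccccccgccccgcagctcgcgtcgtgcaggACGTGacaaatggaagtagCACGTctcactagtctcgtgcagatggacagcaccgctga
Ldha (chr7:46845624-46845803, plus strand): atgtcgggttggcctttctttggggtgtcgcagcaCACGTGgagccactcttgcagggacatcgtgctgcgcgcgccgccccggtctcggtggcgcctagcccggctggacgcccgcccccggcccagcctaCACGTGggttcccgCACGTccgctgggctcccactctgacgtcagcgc
These letters were found within the 250 bases before a start in 11 of the 14 HIF targets with an entry, in 11 of 21 genes of glucose transport and glycolysis, and in 18.5% of all 27025 genes with an entry. A match in letters is a description and not a bound site.

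Among the HIF targets, Ndrg1, a stress-responsive differentiation gene (chromosome 15, 66929318 to 66969640, minus strand), was at 177, 179.9 and 226 CPM with DMSO and at 825, 872 and 827 CPM with BAM15. The lowest BAM15 sample lay above the highest DMSO sample by a wide margin (log2 fold change 2.11 ± 0.0688 SE, adjusted p = 1.19e-16). Adm, the vasodilator peptide adrenomedullin, was at 4.82, 6.25 and 7.74 CPM with DMSO and 33.5, 32.9 and 35.5 CPM with BAM15 (log2 fold change 2.43 ± 0.21 SE, adjusted p = 4.06e-09). Bnip3, the outer membrane receptor whose promoter is shown above, was at 151, 182 and 218 CPM and rose to 696, 749.8 and 761 CPM (log2 fold change 2.00 ± 0.0931 SE). Car9, a second surface carbonic anhydrase, went from 42.3 ± 13.7 CPM (SD, n = 3) to 172 ± 10.6 CPM. The oxygen-sensing hydroxylases themselves rose, Egln1 at 6.37 ± 0.282 against 18.9 ± 1.87 CPM and Egln3 at 113 ± 11.9 against 323 ± 22.4 CPM. Vegfa, the angiogenic growth factor, rose from 4.87 ± 0.495 to 10.7 ± 1.04 CPM, and Ldha, lactate dehydrogenase, from 1179 ± 84.0 to 2190.1 ± 80.0 CPM.

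Genes of glucose uptake and glycolysis mostly rose with them. Of 22 members tested, 18 were called higher and 1 lower (beside 13.2% and 12.2% of all genes), with a median log2 fold change of 0.87. The position fit called 17 higher and 1 lower, beside 8.16% and 6.53% of all genes. Part of this list is also among the HIF targets. The transporter Slc2a1 (GLUT1) was at 35.2, 46.3 and 50.5 CPM with DMSO and at 137, 148 and 138 CPM with BAM15 (log2 fold change 1.68 ± 0.0928 SE, adjusted p = 9.34e-13). Its insulin-responsive relative Slc2a4 (GLUT4) was scarce and went from 2.01 ± 0.232 to 5.03 ± 0.523 CPM. The rises ran down the pathway. Hexokinase Hk2 had a log2 fold change of 1.56, the regulatory enzyme Pfkfb3 of 1.47, phosphofructokinase Pfkl of 1.30, Pgk1 of 1.19, enolase Eno1 of 0.88 and the lactate exporter Slc16a3 of 0.96. The muscle enolase Eno3 was the member that fell, at a log2 fold change of -0.11 (adjusted p = 0.0045), and Pgam2, Ldhb and the transporter Slc16a1 were not called.

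Set beside 5% oxygen, a comparison chosen after the data were seen, few HIF targets were higher with BAM15 than in the hypoxic samples. Ndrg1 was at 885, 849 and 875 CPM in 5% oxygen, overlapping the BAM15 range (log2 difference -0.05 ± 0.0654 SE, adjusted p = 0.644). Bnip3 was at 1042 to 1101 CPM in 5% oxygen, above all BAM15 samples (log2 difference -0.55, adjusted p = 6.05e-05), and Car9 was lower with BAM15 by a log2 difference of -1.09 (adjusted p = 5.25e-05). Of the 15 targets, 1 was higher and 9 were lower with BAM15 than in 5% oxygen, beside 11.5% and 12.9% of all genes. In either direction 24.4% of all genes were called in that comparison. The 5% oxygen samples lay 1 to 3 rows from the plate edge, and no position fit was made for this comparison. They had been at that oxygen level since the night before, so the exposures also differed in length. The ISR regulators went the other way, with 12 of 15 higher with BAM15 and none lower. In the same comparison all 16 G2 and mitosis genes (median log2 difference 2.70) and 11 of 16 S phase genes (0.66) were higher with BAM15, beside 11.5% of all genes, and what part this had in the other differences was not tested.

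**Figure D3:**
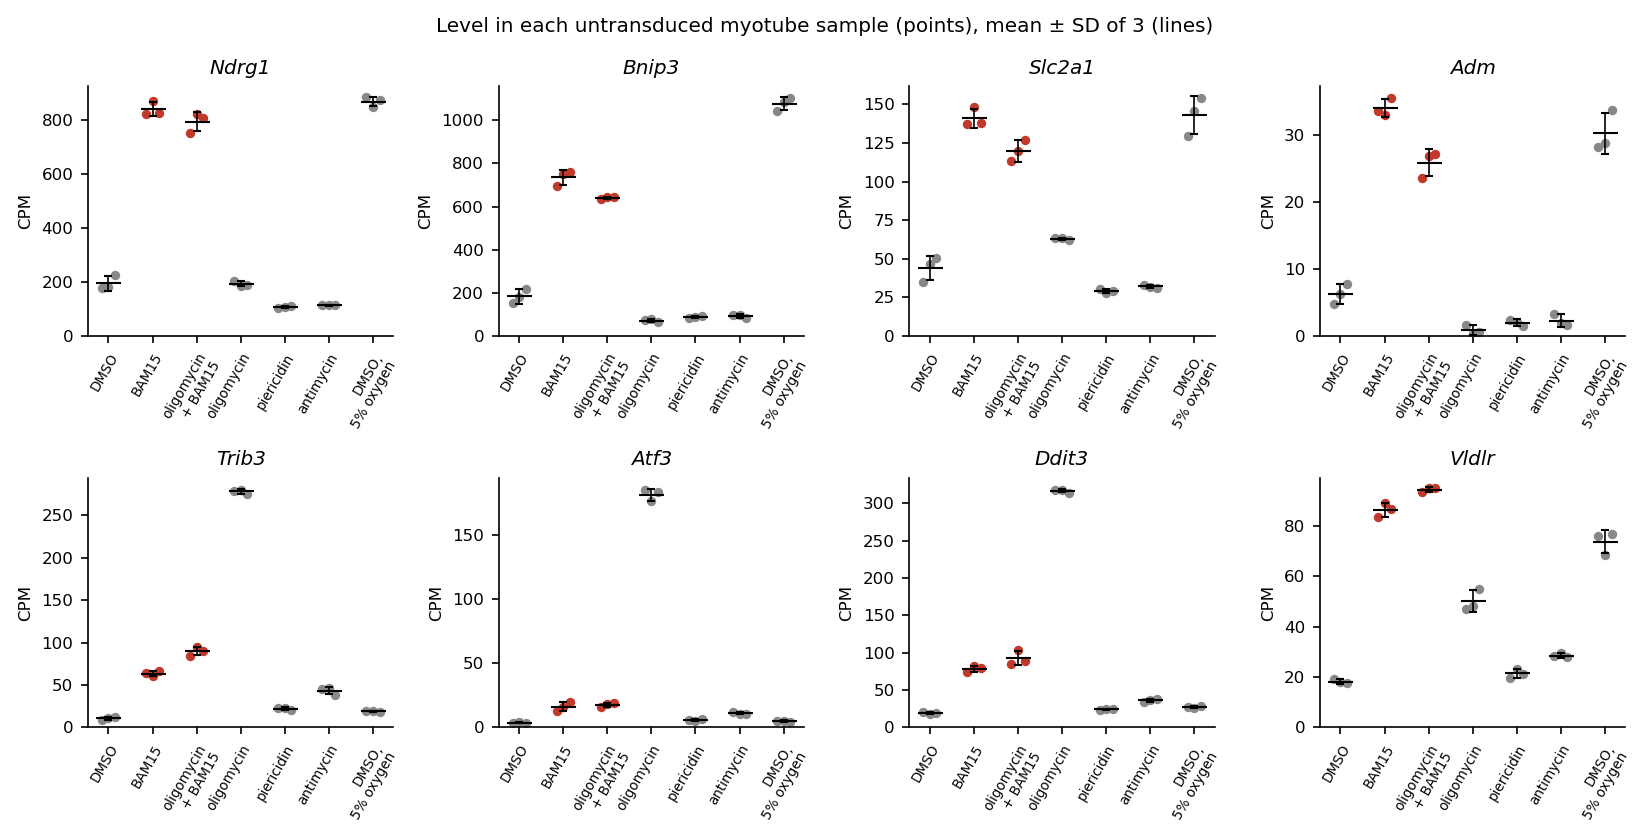
CPM of 4 HIF targets (upper row) and 4 ISR genes (lower row) in the samples (points) of 7 untransduced myotube groups with the mean ± SD of 3 samples (lines); BAM15-treated groups are in red. HIF targets were high with BAM15, with or without oligomycin, and in 5% oxygen, whereas Trib3, Atf3 and Ddit3 were highest with oligomycin alone, and Vldlr with both BAM15 groups.

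The ISR regulators and secreted markers rose as well. Of 15 tested, 14 were called higher and 0 lower, in the position fit also, beside 13.2% and 8.16% of all genes higher. Their median log2 fold change was 1.01. The member not called was Atf5, a transcription factor of the mitochondrial stress response, at 5.42 ± 1.25 against 4.64 ± 1.5 CPM. In this family the letters TGATGCAA, or TTGCATCA on the other strand, form the amino acid response element to which ATF4 pairs with C/EBP factors. They stood within 250 bases before a start in 5 of 14 regulators with an entry and in 0.918% of all genes with an entry, and are shown in capitals in members whose levels are described here.
Atf3 (chr1:191183401-191183478, minus strand): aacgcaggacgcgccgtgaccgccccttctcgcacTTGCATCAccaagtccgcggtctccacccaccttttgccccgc
Chac1 (chr2:119351014-119351091, plus strand): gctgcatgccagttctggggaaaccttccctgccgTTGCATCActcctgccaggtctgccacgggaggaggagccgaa
Vldlr (chr19:27216785-27216862, plus strand): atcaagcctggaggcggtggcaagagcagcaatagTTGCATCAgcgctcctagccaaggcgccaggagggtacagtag

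Trib3, a pseudokinase that feeds back on ATF4 (chromosome 2, 152337422 to 152344032, minus strand), was at 9.24, 11 and 12.6 CPM with DMSO and at 64.1, 60.2 and 66.0 CPM with BAM15. The groups were separated by several times their spread (log2 fold change 2.53 ± 0.0925 SE, adjusted p = 6.25e-16). Atf3, a stress-induced transcription factor, was at 3.49, 4.17 and 3.30 CPM with DMSO and at 12.7, 16 and 19.5 CPM with BAM15 (log2 fold change 2.13 ± 0.17 SE, adjusted p = 1.29e-09). Ddit3, which encodes CHOP, was at 20.1, 17.4 and 19.5 CPM and rose to 74.5, 82.5 and 79.5 CPM (log2 fold change 2.05 ± 0.0812 SE). Vldlr, a lipoprotein receptor known as a target of both ATF4 and HIF, rose from 17.6 to 19.3 CPM up to 83.4 to 88.9 CPM. Chac1, which degrades glutathione, rose from 24.6 ± 2.35 to 65.6 ± 3.62 CPM, and Ppp1r15a, the phosphatase subunit that reverses eIF2 alpha phosphorylation, from 27.6 ± 1.70 to 55.7 ± 1.45 CPM. Atf4 mRNA itself rose less, from 202 ± 2.81 to 312 ± 5.90 CPM (log2 fold change 0.63 ± 0.0459 SE, adjusted p = 1.77e-10). Of the secreted mitokines, Gdf15 stayed low in number but rose, from 1.63 to 2.17 CPM to 5.82 to 8.80 CPM (log2 fold change 1.95 ± 0.22 SE), and Fgf21 rose by 0.42 (adjusted p = 0.000823; 0.31 and adjusted p = 0.114 without both outer-row BAM15 samples).

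Of 15 amino acid and one-carbon enzymes 11 were called higher (73.3%, beside 13.2% of all genes) and 1 lower. These enzymes lie downstream of the regulators and had a median log2 fold change of 0.37. The position fit called 8 higher and 0 lower, beside 8.16% of all genes higher. The largest rises were those of Cth, which makes cysteine, from 1.75 ± 0.817 to 6.55 ± 0.847 CPM, and of Mthfd1l, a mitochondrial folate enzyme, from 23.4 ± 2.09 to 69.8 ± 4.55 CPM (log2 fold change 1.58, adjusted p = 4.37e-12). Aldh1l2, another folate enzyme, and Pck2, mitochondrial PEP carboxykinase, had log2 fold changes of 1.09 and 0.94. Asns, asparagine synthetase, was at 103 ± 2.90 CPM with DMSO and at 123, 132 and 132 CPM with BAM15, all above the DMSO samples (log2 fold change 0.32 ± 0.0565 SE, adjusted p = 0.000152). Its call was lost without both outer-row BAM15 samples (0.24, adjusted p = 0.0628). The serine synthesis enzymes Phgdh and Psph were not called, and Psat1 was the enzyme called lower, at -0.15, a call absent from the position fit.

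Amino acid transporters and tRNA synthetases changed in both directions. Of 11 transporters, 4 were called higher (36.4%, beside 13.2% of all genes) and 1 lower, and 3 and 1 in the position fit, led by the glycine transporter Slc6a9 (log2 fold change 0.77), the heavy chain Slc3a2 (0.69) and the neutral amino acid carrier Slc1a4 (0.68). Slc7a11, the cystine carrier, had 1.70 to 3.53 CPM with DMSO and 3.29 to 5.92 CPM with BAM15, which overlap (adjusted p = 0.118). Of 20 cytosolic tRNA synthetases, 6 were called higher, up to 0.32 for Sars, and 4 lower (20.0%, beside 12.2% of all genes), and in the position fit 3 and 1. Vars, the valine enzyme, had the largest of those falls, -1.49, and followed plate position (-0.41 in the position fit, adjusted p = 0.369). Of 7 eIF2 alpha kinase and relay genes tested none rose and 2 fell, Eif2ak3, which encodes PERK, by -1.15 and the protease Yme1l1 by -0.12, and neither was called in the position fit. The relay gene Dele1 was not analysed here.

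**Figure D4:**
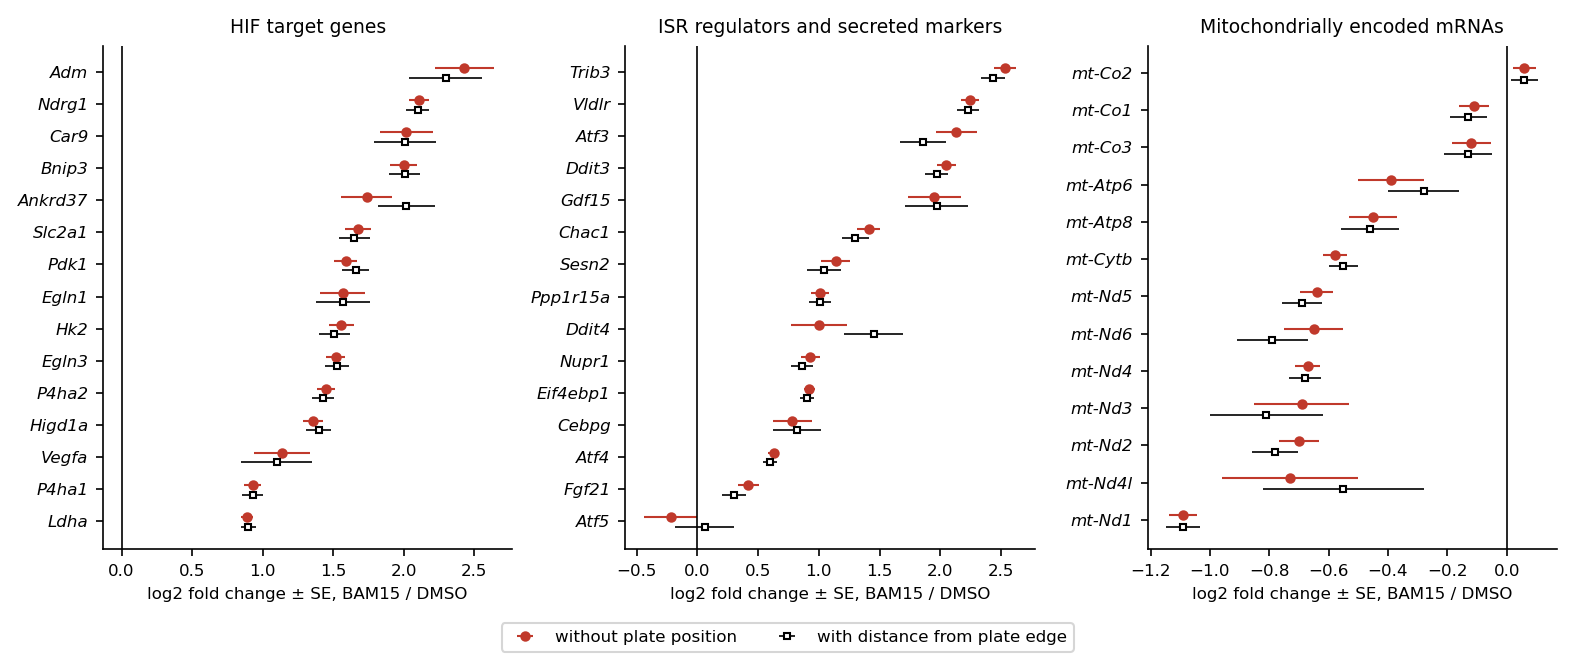
Log2 fold changes of BAM15 against DMSO with their SE for the tested members of 3 lists, from the fit without plate position (filled circles) and with distance from the plate edge as covariate (open squares). All 15 HIF targets and 14 of 15 ISR regulators lie to the right of 0 in the first fit, and 10 of 13 mitochondrially encoded mRNAs were called lower, with mt-Nd1 lowest at -1.09.

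The mRNAs made from mitochondrial DNA fell, and unevenly. Of 13 tested, 10 were called lower and 0 higher (beside 12.2% and 13.2% of all genes), with a median log2 fold change of -0.64. The position fit called 8 lower, beside 6.53% of all genes. When BAM15 was added to oligomycin, 2 were called higher and 2 lower than with oligomycin, with a median of -0.04. mt-Nd1, a complex I subunit, was at 1681, 1891 and 1739 CPM with DMSO and at 869, 788 and 837 CPM with BAM15 (log2 fold change -1.09 ± 0.0471 SE, adjusted p = 1.13e-14). mt-Cytb of complex III fell from 859 ± 40.1 to 573 ± 28.7 CPM, and the other 6 complex I subunit genes had log2 fold changes of -0.64 to -0.73. The 3 complex IV genes were not called, mt-Co1 at -0.11, mt-Co2 at 0.06 and mt-Co3 at -0.12 (adjusted p = 0.123, 0.242 and 0.201), although without the count filter mt-Co1 (-0.13) and mt-Co3 (-0.14) were. Together the 13 made up 1.01, 1.04 and 1.03% of counts with DMSO and 0.818, 0.735 and 0.782% with BAM15. The ranges did not overlap, and the exact permutation test gave p = 0.1, two-sided, the smallest that 3 against 3 samples allow. A share of polyA RNA does not separate fewer mitochondrial transcripts per cell from more RNA of other kinds.

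The nuclear genes of the respiratory chain did not follow them. Of 37 nuclear complex I subunits 1 was called higher (Ndufv3, log2 fold change 0.51) and 1 lower (Ndufs8, -0.21), and of 38 subunits of complexes III, IV and V 2 were called higher and 4 lower, with medians of -0.04 and 0.02. Both shares lie below the 25.4% called over all genes. The position fit called the same numbers in complex I, and 0 higher and 1 lower in complexes III, IV and V, where Cox8b, Atp5g1 and Atp5g2 were among the calls lost. Of 28 mitochondrial ribosomal proteins 9 were called lower (32.1%, beside 12.2% of all genes) and 0 higher, with a median of -0.14. The position fit called 6 lower, beside 6.53% of all genes. Regulators of mitochondrial biogenesis gave 2 falls among 15 (13.3%, near the 12.2% of all genes), Polrmt (-0.34) and Polg (-1.09, lost in the position fit). Ppargc1a, the coactivator PGC-1 alpha, was at 3.08, 3.53 and 2.17 CPM with DMSO and at 2.50, 5.43 and 3.21 CPM with BAM15. Its groups overlapped, and it was not called (log2 fold change 0.35 ± 0.28 SE, adjusted p = 0.397). Of 15 mitochondrial chaperones and proteases 3 rose (20.0%, beside 13.2% of all genes), Lonp1 (0.48), Dnaja3 (0.48) and Hspa9 (0.38), and 1 fell (6.67%), Hspd1 (-0.18).

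Proton leak and mitophagy genes changed in single members. Ucp3, the uncoupling protein of skeletal muscle, was at 1.74, 2.08 and 1.70 CPM with DMSO and at 4.62, 4.44 and 2.81 CPM with BAM15 (log2 fold change 1.10 ± 0.27 SE, adjusted p = 0.00367; 1.09 and adjusted p = 0.0287 in the position fit). Ucp2, far more abundant, fell from 187 ± 4.27 to 149 ± 7.18 CPM. The carrier Slc25a30 rose by 0.58 on the log2 scale, while the adenine nucleotide carriers Slc25a4 and Slc25a5 were not called. Beside Bnip3, its relative Bnip3l rose from 141 ± 13.5 to 302 ± 9.14 CPM, and the mitophagy adaptors Optn and Sqstm1 had log2 fold changes of 0.52 and 0.30. The kinase Pink1 and the fusion and fission genes Mfn1, Mfn2, Dnm1l and Opa1 were not called.

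Among genes that set which fuel is burned, Pdk1 and Pdk2 rose in both fits. Pdk1, which shuts off pyruvate dehydrogenase, rose from 84.3 ± 12.1 to 254 ± 8.59 CPM (log2 fold change 1.59), and Pdk2 from 44.1 ± 1.76 to 69.0 ± 1.22 CPM. Pdk4 was at 38.7, 35.6 and 42.0 CPM with DMSO and at 42.8, 54.1 and 51.5 CPM with BAM15, a call at adjusted p = 0.0148 that the position fit did not keep (log2 fold change 0.13, adjusted p = 0.463). Of 29 genes of pyruvate dehydrogenase and the TCA cycle 7 were called higher (24.1%) and 2 lower (6.90%), with a median of -0.01. The position fit called 3 and 3, shares near the 8.16% and 6.53% of all genes in that fit. Of 4 tested genes of the glucose sensor MondoA and its targets 2 rose, and Mlx, the partner of MondoA, fell (-0.33, not called in the position fit). Txnip, an arrestin that curbs glucose uptake, was at 17.3, 24.8 and 25.4 CPM with DMSO and 47.8, 51.8 and 57.0 CPM with BAM15 (log2 fold change 1.21 ± 0.13 SE, adjusted p = 2.23e-07), and its relative Arrdc3 had a log2 fold change of 1.28. Arrdc4, the arrestin best known beside Txnip as a MondoA target, stayed under the count filter, at 0.906 CPM or less in all 6 samples.

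Energy stores showed rises of Gbe1 and Gys1, the branching enzyme and synthase of glycogen, with log2 fold changes of 1.21 and 0.80, and of the mitochondrial creatine kinase Ckmt2, from 2.04 ± 0.139 to 5.27 ± 0.997 CPM. Of the 12 AMPK genes 2 rose and 2 fell (16.7% each, near the 13.2% and 12.2% of all genes). The regulatory subunit Prkab2 (0.91) and the autophagy kinase Ulk1 (0.87) rose, the regulatory subunit Prkag3 (-0.73) and the lysosomal transcription factor Tfeb (-0.59, lost in the position fit) fell, and the catalytic subunits Prkaa1 and Prkaa2 were not called. In fatty acid oxidation 7 of 20 were called higher and 0 lower, with 6 in the position fit and 3 without both outer-row BAM15 samples. Acot2, a mitochondrial thioesterase, had the largest log2 fold change of these, 1.31, and Angptl4, a lipase inhibitor, 0.52.

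Genes of sterol synthesis and uptake mostly fell. Of 23 tested, 17 were called lower and 0 higher, beside 12.2% and 13.2% of all genes, with a median log2 fold change of -0.37. The position fit called 16 lower, beside 6.53% of all genes. Idi1, an isomerase of the isoprene pathway, was at 135, 142 and 141 CPM with DMSO and at 85.3, 90.1 and 84.1 CPM with BAM15 (log2 fold change -0.69 ± 0.0553 SE, adjusted p = 1.02e-09). Cyp51, a demethylase of the pathway (-0.60), and the feedback gene Insig1 (-0.55) also fell. Of 13 fatty acid synthesis genes 5 fell, and 4 in the position fit, among them Fasn (-0.60), Fads2 (-0.63) and Elovl6 (-0.76), and Acss2, which activates acetate, rose by 0.48 on the log2 scale. The largest fall there, Acsl3 at -1.23, followed plate position and was lost in the position fit.

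DNA replication genes were low in these myotubes and fell further. Of 16 S phase genes 10 were called lower and 0 higher, beside 12.2% and 13.2% of all genes, with a median of -0.47. The position fit called 7 lower, beside 6.53% of all genes. The helicase subunit Mcm5 went from 26.4 ± 4.21 to 10.9 ± 1.09 CPM (log2 fold change -1.27, adjusted p = 1.37e-06), Mcm3 from 27.6 ± 4.29 to 13.5 ± 2.15 CPM, and the loader Cdc6 from 3.85 ± 0.448 to 1.29 ± 0.365 CPM. None of the 16 G2 and mitosis genes was called by edgeR without position, and Cdk1, the mitotic kinase, was called lower in the position fit. In bulk RNA, fewer cells of a type and less RNA per cell cannot be told apart. The cell cycle inhibitor Cdkn1a, abundant in these cells, fell from 1523 ± 48.7 to 1138 ± 11.7 CPM.

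Chaperones of the endoplasmic reticulum and heat shock genes were called lower more often than the 12.2% of all genes. Of 15 such chaperones 10 were called lower (66.7%) and 1 higher, with 7 and 1 in the position fit (beside 6.53% of all genes lower). Hspa5, the main chaperone there (BiP), went from 797 ± 16.9 to 625 ± 20.5 CPM (log2 fold change -0.35, adjusted p = 1.74e-07), Hyou1 fell by 0.78 and Manf by 0.46 on the log2 scale. Herpud1, a degradation factor, was the one that rose (0.50), and the fall of Dnajb11 (-1.88) was lost with position. Of 11 heat shock genes 0 rose and 5 fell (45.5%), as many as in the position fit, among them Hsph1 (-0.39) and Hspa8 (-0.35). Of 14 NRF2 genes 3 fell (21.4%, and 2 in the position fit), Txnrd1 (-1.04) with the largest change, and Hmox1, heme oxygenase, rose (0.66), while the metallothioneins Mt1 and Mt2 rose by 0.77 and 1.08.

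Ribosome genes split. Of 32 cytosolic ribosomal proteins 21 were called higher and 2 lower, beside 13.2% and 12.2% of all genes. The rises were of at most 0.37 on the log2 scale (Rpl3). The position fit called 12 higher and 0 lower, beside 8.16% and 6.53% of all genes. Of 17 ribosome biogenesis genes 10 were called lower and 2 higher, with 8 and 2 in the position fit. Among those lower were Nop56 (-0.45), Nolc1 (-0.42) and the polymerase subunit Polr1a (-0.42). The transcription factor Myc rose, from 23.2 ± 2.01 to 40.1 ± 2.18 CPM.

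Contractile genes rose in part. Of 28 sarcomere genes 12 were called higher and 3 lower, beside 13.2% and 12.2% of all genes, with a median of 0.07. The position fit called 9 and 3, beside 8.16% and 6.53%. Myh7, the slow myosin heavy chain, was at 129.6, 159.8 and 164 CPM with DMSO and 303, 366 and 329 CPM with BAM15 (log2 fold change 1.14 ± 0.0874 SE, adjusted p = 4.15e-10). Cardiac actin Actc1 (0.84), the binding protein Mybpc2 (0.74) and Acta1 (0.46) also rose. Of 10 myogenic factors 1 rose and 5 fell, beside 13.2% and 12.2% of all genes, and 1 and 3 in the position fit, beside 8.16% and 6.53%. Myf5 rose (0.83) and Myod1 (-0.29) and Mef2a (-0.61) fell, while Myog was not called. The atrophy ligases Trim63 (MuRF1) and Fbxo32 (atrogin-1) rose by 0.77 and 0.50 on the log2 scale.

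Further lists held calls in both directions, beside 13.2% higher and 12.2% lower over all genes. Of 14 clock genes 7 rose and 1 fell, and 5 and 0 in the position fit, with Ciart, a repressor of the clock, at 2.73 ± 0.501 against 9.73 ± 1.25 CPM, and Bhlhe40 at a log2 fold change of 0.76. Without both outer-row BAM15 samples Ciart had a log2 fold change of 2.00 and Bhlhe40 of 0.68. Of 17 early response genes 7 rose and 3 fell, and 6 and 2 in the position fit. Ier3 rose by 1.31 and Klf4 by 0.95, while Egr1 and Egr3 fell by 0.37 and 0.48. Of 8 chemokines and cytokines 1 rose and 1 fell (12.5% each). Il15 rose from 2.30 ± 0.296 to 4.91 ± 0.925 CPM, and Csf1, a growth factor of macrophages, went from 56.9 ± 3.52 to 46.7 ± 5.63 CPM, a call lost without BAM15 replicate 3, DMSO replicate 1 or DMSO replicate 3. Of 11 IGF axis and growth factor genes 3 rose and 4 fell, and 1 and 2 in the position fit. The binding protein Igfbp4 rose by 0.52 on the log2 scale, the falls of Igfbp3 and Igfbp2 were lost in the position fit, and those of the activin antagonist Fst (-0.93, and -0.57 with position) and of Tgfb2 (-0.31) held. Of 15 p53 targets 4 rose (26.7%) and 3 fell (20.0%), and the position fit called 2 in each direction (beside 8.16% and 6.53% of all genes), without Btg2 and Phlda3. Sesn2, which is also on the ISR list, rose most (1.14). Of 8 aryl hydrocarbon receptor targets 4 rose and 1 fell, and 3 and 1 in the position fit, among them Cyp1b1, which rose by 0.59.

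Direct comparison with the respiratory chain inhibitors showed where the uncoupler differed from them. BAM15 differed from piericidin at 2098 genes (16.8%), from antimycin at 1656 (13.3%) and from oligomycin at 3828 (30.6%). The piericidin samples lay 1 to 3 rows from the plate edge, and with position in the fit 1275 genes differed from them. The HIF targets were higher with BAM15 in all 15 of 15 against piericidin and antimycin, with medians of 2.07 and 2.13, beside 9.05% and 7.80% of all genes, and in 14 of 15 against oligomycin (2.04), beside 15.5%. Ndrg1 was at 102 to 111 CPM with piericidin, 113 to 116 CPM with antimycin and 187 to 204 CPM with oligomycin, all far below the 825 CPM of the lowest BAM15 sample. Adm, at 34.0 ± 1.37 CPM with BAM15, was at 1.95 ± 0.505, 2.30 ± 0.901 and 0.863 ± 0.711 CPM with these 3 inhibitors, in that order. Ppp1r3b, Car12 and Ero1l were higher with BAM15 than with each inhibitor, by log2 differences of 2.00 to 3.91. Txnip was also higher with BAM15 than with each of them, by log2 differences of 1.83, 1.69 and 1.33.

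The ISR regulators ranked otherwise. Against piericidin 11 of 15 were higher with BAM15 and 1 lower (beside 7.74% of all genes lower), against antimycin 10 and 2 (5.46% lower), and against oligomycin 2 and 13 (15.1% lower). Trib3 averaged 22.2 ± 1.61 CPM with piericidin, 43.4 ± 4.19 with antimycin, 63.4 ± 2.93 with BAM15 and 278 ± 2.77 with oligomycin, and BAM15 differed from each of them (adjusted p = 1.19e-12 against piericidin, 2.55e-05 against antimycin and 1.15e-16 against oligomycin, by edgeR). Ddit3 differed from antimycin by 1.13 and Atf3 by 0.55 on the log2 scale, both higher with BAM15. Gdf15 was not called against piericidin (log2 difference 0.55 ± 0.19 SE, adjusted p = 0.0511) or antimycin (-0.31 ± 0.17 SE, adjusted p = 0.263). Asns was lower with BAM15 than with antimycin by -0.38 (adjusted p = 2.83e-05). Ucp3 was not called against piericidin or antimycin (0.08 and -0.04, each ± 0.25 SE, adjusted p = 0.933 for both) and was higher than with oligomycin by 3.0 (adjusted p = 5.3e-08). Ppargc1a was called only against oligomycin of the 3 (1.27, adjusted p = 0.00205). Pdk4 was higher with BAM15 than with piericidin (0.38) and oligomycin (0.49). The mitochondrially encoded mRNAs were lower with BAM15 in 12 of 13 against piericidin, 9 against antimycin and 7 against oligomycin, and none was higher. E2f2, at 17.9 ± 0.873 CPM with BAM15, was at 25.1 ± 2.87, 28.2 ± 1.91 and 17.2 ± 1.5 CPM with piericidin, antimycin and oligomycin, and did not pass the test against oligomycin (log2 difference 0.06, adjusted p = 0.701).

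Dapk3, Rnf187, Dnaaf5, Tysnd1 and Igfbp3, the 5 largest falls against DMSO, were also called lower with BAM15 against piericidin, with log2 differences of -3.44 to -2.12. With position in the fit Dapk3 and Rnf187 kept that call and the other 3 lost it. None of the 5 was called against antimycin (log2 differences of -2.66 to -1.07) or oligomycin (-1.31 to 0.02), with SE of 0.58 to 0.98 over the 3 comparisons, so that differences of this size could be missed.

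**Figure D5:**
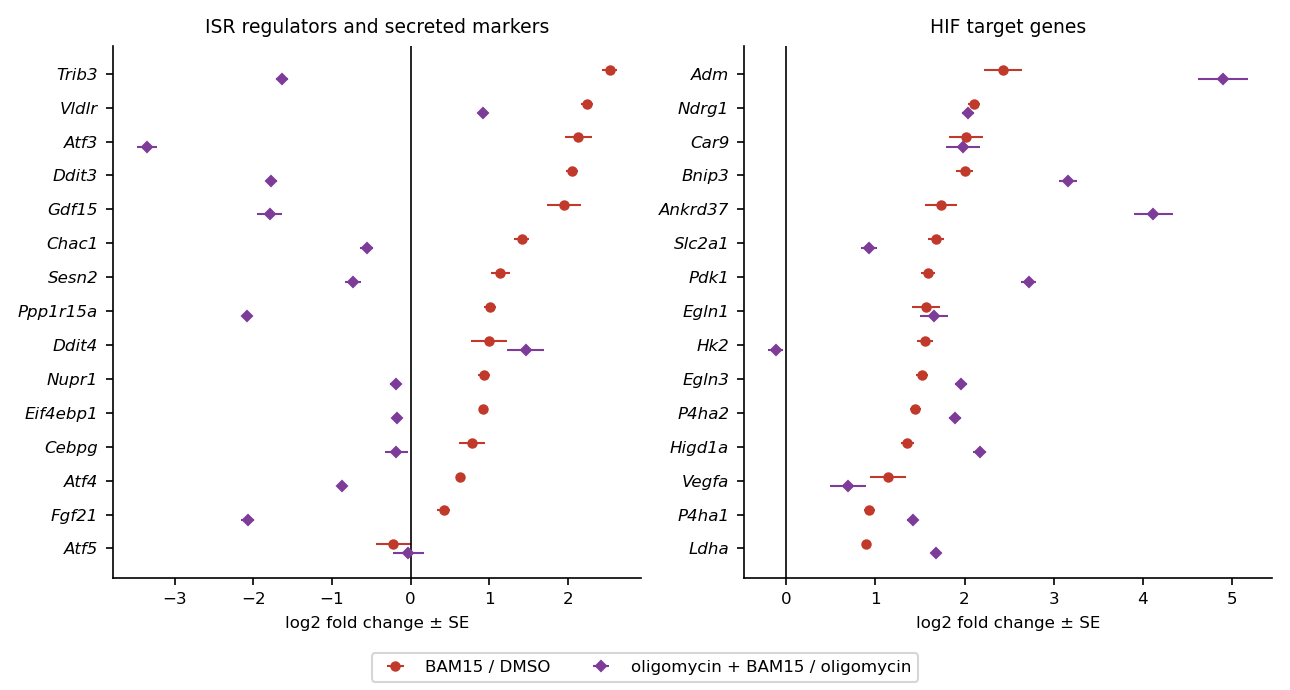
Log2 fold changes with SE of BAM15 alone against DMSO (circles) and of BAM15 added to oligomycin against oligomycin (diamonds) for ISR regulators (left) and HIF targets (right). With oligomycin present 10 of 15 ISR regulators were called lower, Atf3 at -3.35 against 2.13 without it, while 14 of 15 HIF targets were called higher in both.

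Added to oligomycin, BAM15 changed 3263 genes (26.1%), 1499 higher and 1764 lower. This combination asks whether an agent that lowers the membrane potential alters the response to an agent that blocks ATP synthase. The effect of BAM15 in oligomycin minus its effect in DMSO (the interaction) was called for 2327 genes (18.6%), and for 1377 with position in the fit. For the ISR regulators the interaction was negative in 13 of 15 and positive in none, beside 10.4% and 8.21% of all genes, and for the amino acid and one-carbon enzymes negative in all 15. For the mitochondrially encoded mRNAs the interaction was positive in 9 of 13 and negative in none, with a median of 0.51. Atf3 averaged 181 ± 4.41 CPM with oligomycin and 17.8 ± 1.57 CPM with oligomycin and BAM15, next to 16.1 ± 3.40 CPM with BAM15 alone. Trib3 went from 278 ± 2.77 CPM to 89.7 ± 4.79 CPM, which lay above the 63.4 ± 2.93 CPM of BAM15 alone, and Ddit3 from 317 ± 2.35 to 92.7 ± 9.62 CPM. The HIF targets were higher with both agents than with oligomycin in 14 of 15, Bnip3 at 71.4 ± 6.58 against 639.6 ± 6.0 CPM. Hk2 was the exception (-0.12, adjusted p = 0.323). The interaction for the HIF targets was called positive in 9 of 15 and negative in 2, with a median of 0.44, positive for Adm (2.47), Ankrd37 (2.39) and Bnip3 (1.16) among others and negative for Hk2 (-1.68) and Slc2a1 (-0.75). These are ratios, and the starting levels differed. Adm went from 0.863 ± 0.711 to 25.8 ± 2.00 CPM in oligomycin and from 6.27 ± 1.46 to 34.0 ± 1.37 CPM in DMSO, so that its level was not higher with both agents than with BAM15 alone. Vldlr was higher under both agents (94.4 ± 0.864 CPM) than under oligomycin (50 ± 4.33 CPM). For Txnip, Pdk4 and Ndrg1 the interaction was not called (adjusted p = 0.842, 0.634 and 0.656).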

How the data were processed

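RNA-seq libraries were made by the authors from polyA RNA and, per the study's methods, quantified with kallisto 0.44 with bias correction on Ensembl transcripts of GRCm38.p6 and summed to genes over 2 flow cells. The deposited values are estimated counts per gene as the authors made them, not normalized, and were rounded to whole numbers here. Doses and times come from the study's methods. Members and gene lists were chosen with earlier results of these data known. Genes with at least 16 counts in all 3 replicates of a condition (12491) were tested with edgeR 4.0.16 (R 4.3.3; TMM, quasi-likelihood F test, Benjamini-Hochberg adjustment, threshold 0.05) on all 27 untransduced myotube samples of 9 conditions, which thereby shared one estimate of the spread. SE was taken as the log2 fold change over the square root of F, CPM used TMM library sizes, and marker sums plain totals. The share of mitochondrially encoded counts was compared by an exact permutation test (scipy 1.17.1). Intervals and p-values cover counting error and the spread between samples only. Depth was 9810751 to 12204367 counts in the 6 samples, and no 2 libraries were identical.

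Named were the 12 genes in each direction that had the largest called changes, non-overlapping groups and on average 50 counts or more, up to 4 called members of each list, and 12 fixed genes (Atf3, Atf4, Ddit3, Gdf15, Ppp1r15a, Trib3, Asns, Txnip, Arrdc4, Ppargc1a, Pdk4 and Ucp3). Further members are named for a known role and were chosen after their values were seen. Promoter sequences are from RefSeq, GRCm38.p6. Alternatives were DESeq2 1.42.0 (size factors and Wald test), no count filter, a replicate block, only the groups compared, plate position, and samples left out. The statistical scripts were tested on simulated data. Some members of the lists are not reported here by name.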

Additional observations from a re-analysis of the deposited data

Results flagged for a closer look

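The effect of BAM15 differed between cells with and without oligomycin, by the interaction term of the edgeR model, for 2327 of 12491 genes. For 7 ISR genes BAM15 raised the level in DMSO and lowered it in oligomycin, with interactions of -5.48 for Atf3, -4.16 for Trib3, -3.82 for Ddit3, -3.74 for Gdf15, -3.09 for Ppp1r15a, -1.50 for Atf4 and -1.05 for Asns on the log2 scale. On the log2 scale Ucp3 and Adm rose more with BAM15 in oligomycin than in DMSO, from lower levels, with interactions of 2.24 and 2.47. Dapk3, Rnf187, Dnaaf5, Tysnd1 and Igfbp3 had interactions of 3.58, 3.56, 3.33, 3.41 and 3.26. With distance from the plate edge as covariate they were 0.89, 0.62, 0.12, 1.31 and 1.37, and none was called. These 5 genes followed plate position in the other samples. The interaction subtracts the change against DMSO, where these 5 were the largest falls. In that comparison the BAM15 samples lay 0 or 1 row from the plate edge and the DMSO samples 2 or 3 rows. The samples with both agents lay 0 to 2 rows from it and those with oligomycin 0 or 1 row.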

How the results depend on the processing

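Distance from the plate edge moved 3 of the 6 counts by over 1.5 times, and the outer plate row as covariate moved none by that much (2521, 1401, 1714, 3987, 3250 and 1675, in the order BAM15 against DMSO, piericidin, antimycin and oligomycin, both agents, interaction). For BAM15 against DMSO the called genes went from 3177 to 1835 with distance from the plate edge as covariate, 1880 with it as 4 levels. Without both BAM15 samples from outer rows it was 1194, where fewer samples also entered and replicate 1 alone stood for BAM15 with the spread of the other groups. Against piericidin they went from 2098 to 1275 and 1215 with distance in both forms, and for the interaction from 2327 to 1377 and 1381. The counts against antimycin and oligomycin and for both agents were 1707, 3990 and 3284 with distance as covariate, and 1323, 3207 and 2596 with only the groups compared. Both forms of distance were chosen after seeing the data. Leaving out 1 sample in turn gave 2442 to 2886 (BAM15 against DMSO), 1369 to 1928 (against piericidin, 1369 without BAM15 replicate 2), 1163 to 1504 (against antimycin), 3305 to 3436 (against oligomycin), 2720 to 2900 (both agents against oligomycin) and 1829 to 2347 (interaction). The difference in mitochondrially encoded share ran from -0.268 to -0.227 percentage points when 1 sample was left out.

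Of 2595 values of the 173 genes that the rule for naming gave for BAM15 against DMSO, over 15 alternatives, 2332 kept direction and side of the threshold, 261 lost the call and 2 turned direction. The call was lost by 42 genes with distance as covariate and by 58 without both outer-row samples. Both turned values were of Ppargc1a, -0.25 without both outer-row samples and from -0.04 to 0.57 with 1 sample left out. Of 660 values of 44 further genes named in the text, 605 kept direction and side, 18 lost the call, 12 gained one and 25 turned. The 25 were of 7 genes that were not called. With outer row, distance, distance in 4 levels and without both outer-row samples, Prkaa1 was at -0.06, -0.06, -0.05 and -0.08 and Slc16a1 at 0.25, 0.32, 0.29 and 0.21. Prkaa1 was also at -0.01 with either DESeq2 setting and only the groups compared and at -0.02 without the count filter. With both forms of distance Atf5 was at 0.06 and 0.04 and Pink1 at -0.04 and -0.04, and without both outer-row samples Atf5 was at 0.17, Dnm1l at 0.01 and Slc25a4 at -0.03. Leaving out 1 sample gave -0.05 to 0.03 for Prkaa1, -0.28 to 0.03 for Slc16a1, -0.07 to 0.10 for Mfn1 and 0.00 to 0.09 for Pink1. The remaining turned values were of log2 differences that passed no test under that alternative, and the cause was not tested. Against piericidin, leaving out 1 sample gave -0.54 to 0.07 for Ppargc1a and -0.11 to 0.40 for Ucp3, and against antimycin -0.17 to 0.14 for Ucp3. Against oligomycin it gave -0.82 to 0.06 for Rnf187, -1.28 to 0.84 for Tysnd1 and -0.20 to 0.29 for Igfbp3, which was -0.01 with the replicate block. For both agents against oligomycin, with outer row, distance and distance in 4 levels in the fit, Dapk3 was at -0.40, -0.36 and -0.73 (-1.15 to 1.54 with 1 sample left out), Rnf187 at -0.17, -0.35 and -0.57 (-0.44 to 1.03) and Dnaaf5 at -0.07, -0.41 and -0.49 (-0.41 to 0.87), and Tysnd1 was at -0.07 with 4 levels (-0.42 to 2.19). In the same order of position settings the interaction was 0.09, 0.04 and 0.09 for Txnip (-0.17 to 0.08 with 1 sample left out) and 0.08, 0.16 and 0.17 for Pdk4. For Ppp1r3b it was 0.04 with outer row and 0.01 with 4 levels (-0.36 to 0.16), and for Dnaaf5 -0.04 with 4 levels.

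With the replicate number as a block the counts were 3109, 2091, 1605, 3760, 3216 and 2226, in the order above. Samples with the same number did not deviate together (correlations of 0.0198, -0.0126 and 0.0687), and not every sample correlated best with its own number.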
